A study of Rattus norvegicus with 12 samples.

Results

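Collagen chains, the metalloproteinases that cut the extracellular matrix and the tissue inhibitors of those proteases were followed in colonic tissue of rats with neonatal maternal separation (NMS), a model of irritable bowel syndrome in which pups are taken from their dam for part of each day. The members were chosen by gene name: every array probe whose gene name begins with Col, a number and a chain, or with Mmp, Timp, Adam or Adamts and a number. The rule found 123 probes for 101 genes, out of 30367 probes for 26514 gene names on the array. They were 47 probes for 34 collagen genes, 25 for 22 matrix metalloproteinases (Mmp), 29 for 25 members of the Adam family, 16 for 15 members of the Adamts family and 5 for 4 tissue inhibitors of metalloproteinases (Timp). The last probe, Col4a3bp, met the rule by its letters alone, since that gene encodes a ceramide transfer protein, and it is in no family count.

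All rats were male Wistar rats killed at day 60 after colorectal distension, and the tissue came from the colon near the anus. Group C (C1 to C4) was normally handled and received placebo, 100 µL saline by daily gavage from day 3 to day 60. Group M (M5 to M8) was separated for 180 min a day from day 2 to day 14 and received the same placebo. Group D (D9 to D12) underwent the same separation and received VSL#3, a mixture of live probiotic bacteria, in 100 µL by gavage over the same days. The comparisons ask how separation (Group M against Group C) and the probiotic in separated rats (Group D against Group M) relate to the levels of the matrix genes, with Group D against Group C as the remaining pair. There were no normally handled rats on VSL#3, so the probiotic was measured in separated rats only. Labels give each rat a sample of its own but no litter, so p-values measure the spread between these rats.

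The matrix of the gut wall is built mainly of collagens. Fibrillar chains such as types I, III and V form the load-bearing fibres of the submucosa, type IV forms the sheet of the basement membrane under epithelium and vessels, and type VI makes beaded filaments around cells. Matrix metalloproteinases are zinc enzymes that cut collagens and other matrix proteins, and several of them are secreted by stromal cells, macrophages or epithelium during inflammation and ulcer repair. Adam proteins are membrane-bound relatives, many of which shed the outer part of surface proteins, and Adamts proteins are secreted relatives that trim procollagen or cut proteoglycans. The Timp proteins bind the active site of metalloproteinases and block it.

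Each value below is a log2 signal relative to the 75th percentile of its array, so 0 is the signal of that percentile, and a difference of 1 is 2-fold. Levels of different probes are not compared, since probes differ in brightness. The 75th percentile lay between 1434 and 1953 intensity units on the 12 arrays, and 75.5% to 77.5% of the spots were well above background. Signal well above background was reached by 81 of the 123 on all 12 arrays, by 18 on some and by 24 on none. All listed markers of epithelium (7 of 7) and smooth muscle (6 of 6), which a piece of colon should hold, were well above background on every array. Rat D12 was left out of the group means and tests, as in the study's methods. Its values are given beside them for many of the genes printed by rat. Where only D9 to D11 are given, the statement does not cover D12. Groups C and M lay on 1 slide in different rows and Group D on another slide, so slide and group cannot be told apart in the comparisons with Group D.

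Marker genes of some cell types differed between rats of 1 group. The summed signal of the B cell markers on the array (3 of the 4 listed, linear scale, in units of the 75th percentile) was 0.216 to 0.324 in C1, C3 and C4 and 5.35 in C2. It was 4.53 to 8.08 in M5, M7 and M8 but 0.279 in M6, and 0.117 to 0.611 in D9 to D11 but 13.7 in D12. The neutrophil sum (5 of the 6 listed) was 0.34 to 0.818 in Group C, 0.438 to 5.88 in Group M with M7 highest, 0.385 to 0.458 in D9 to D11 and 1.23 in D12. The macrophage sum (6 of 6) was 10.1 to 12.2 in Group C, 12.1 to 15.8 in Group M, 10.7 to 11.8 in D9 to D11 and 13.8 in D12. The fibroblast sum (6 of 6) was 22.4 to 26.8 in Group C, 22.8 to 40.9 in Group M and 20.9 to 22.7 in D9 to D11. The mesothelium sum (3 of 4) was 0.753 to 1.097 in Group C and 0.432 to 0.735 in Group M, and the glia sum (4 of 4) 0.365 to 0.465 and 0.492 to 0.593. These 2 sums did not overlap between Groups C and M, while D9 to D11 spanned 0.276 to 0.755 and 0.446 to 0.558. Only 1 of the 3 mesothelium markers was well above background on all 12 arrays. Only 2 of the 4 glia markers were higher in Group M on average, so the glia sum does not speak for its list. The skeletal muscle sum was 0.28 to 0.533 in Group C and 0.352 to 0.66 in Group M, with all 5 markers higher in Group M on average and Myh1 and Myh4 well above background nowhere. The sums of smooth muscle, epithelium and endothelium overlapped between Groups C and M. The part of cell content in the results below was not tested, and in tissue, more cells of a type and more RNA per cell cannot be told apart.

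Timp1 and several proteases stood higher in Group M than in Group C and lower again in D9 to D11, while the main fibrillar collagens differed little. The methods of the study called a probe when the analysis of variance and Tukey p were at most 0.05, unadjusted, with a 2-fold difference. By that criterion 5 of 123 probes (4.07%) were higher in Group M than in Group C, against 1.37% of all 30367 probes, and these were Timp1, Mmp7, Adamts4, Adamts9 and Col8a1. Adam28 and Mmp11 were lower (1.63%, against 0.935% of all probes). From Group M to Group D, 8 probes (6.5%, against 1.57% of all) were lower, for Timp1, Mmp7, Adamts4, Adamts9, Adamts3, Adam8, Col8a1 and Col12a1, and 2 (1.63%, against 1.09%) were higher, for Adam28 and Col11a2. These 2 comparisons share the Group M rats, so they are no independent support for each other. With D12 counted in Group D, 4 members met the criterion in the first comparison (3.25%, against 1.56% of all probes) and 1, Timp1, in the second (0.813%, against 0.948% of all).

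With limma across all 30367 probes and Benjamini-Hochberg adjustment, no member passed an adjusted p of 0.05 in any comparison. Of all probes, 0.204% passed in Group M against Group C, 0.171% in Group D against Group M and 0.00659% in Group D against Group C. At an unadjusted limma p of at most 0.05, 27 members were higher in Group M than in Group C (22%, against 10% of all probes) and 21 were lower (17.1%, against 12.6%). Between Group D and Group M, 20 were higher (16.3%, against 11.3% of all) and 20 lower (16.3%, against 10.3%). The counts rest on rat M6: without it, 30 members (24.4%) passed the adjusted threshold in Group M against Group C, against 16.2% of all probes, and 27 (22%) in Group D against Group M, against 14.8% of all.

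Taken by family, the differences were small in the middle and wide at the edges. In Group M against Group C the median log2 difference, with 1 probe per gene, was 0.14 over the 34 collagen genes, 0.26 over the 22 Mmp genes, 0.01 over the 25 Adam genes, 0.10 over the 15 Adamts genes and 0.35 over the 4 Timp genes, where the median of all probes on the array was -0.01. Most genes stayed within 2-fold: 30 of 34 collagens, 16 of 22 Mmp, 23 of 25 Adam, 11 of 15 Adamts and 3 of 4 Timp genes. In Group D against Group M the medians were -0.15, -0.22, 0.05, 0.05 and -0.37 in the same order. In Group D against Group C each family median lay between -0.03 and 0.03. The Mmp and Timp medians depend on the choice of probes. With every probe counted, the Mmp medians were 0.04 and -0.05 in the first 2 comparisons and the Timp medians 0.063 and -0.0053, and with probes well above background alone the Mmp medians were 0.49 and -0.59.

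**Figure D1:**
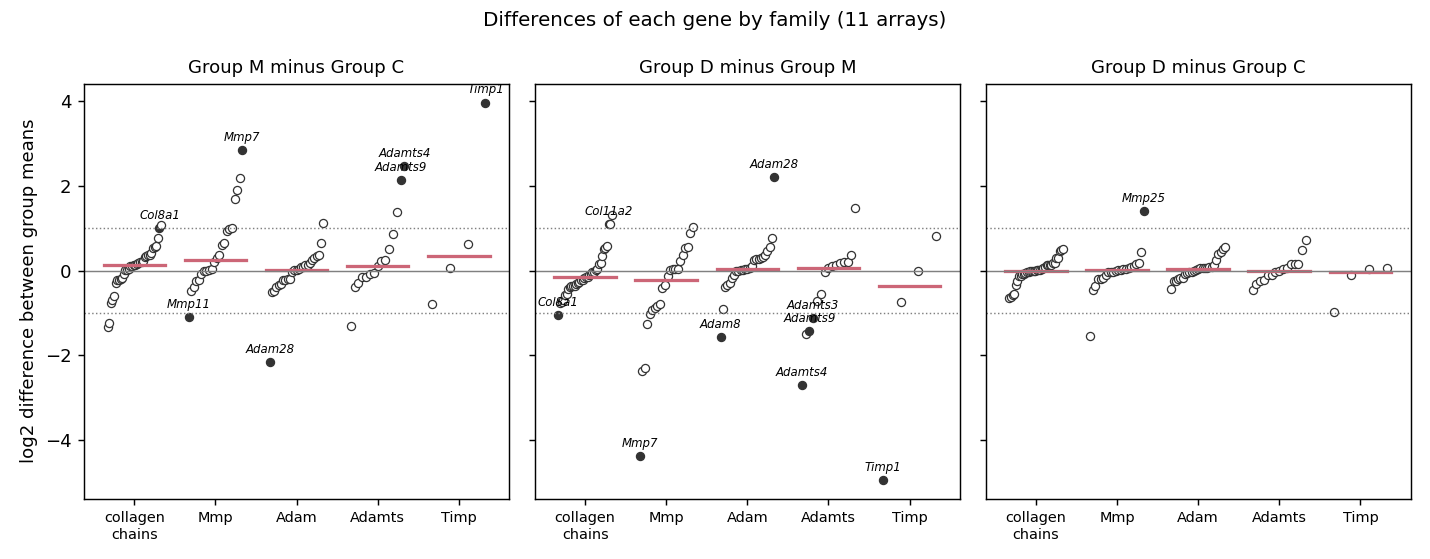
Log2 difference between group means (y axis) for each gene, with 1 probe per gene, by family (x axis) in the 3 comparisons on 11 arrays; filled points passed the methods' criterion, red lines are family medians and dotted lines mark 2-fold. Timp1 is the highest point of Group M minus Group C at 3.97 and the lowest of Group D minus Group M at -4.94, and in Group D minus Group C 1 gene, Mmp25, passed.

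Among the inhibitors, Timp1 had the widest difference. Timp1 encodes a secreted inhibitor of most Mmp enzymes that also acts as a growth factor-like signal. Its probe (chrX:12542700-12543703 in rn4) read 0.13, 3.82, 1.12 and 0.47 in C1 to C4, 5.20, 3.95, 6.78 and 5.51 in M5 to M8, 0.60, 0.46 and 0.20 in D9 to D11 and 4.87 in D12. Groups M and C did not overlap for Timp1, although C2 came close to M6, and D12 sat among the rats of Group M. The difference between Groups M and C was 3.97 (SE 0.79, 15.7-fold, limma adjusted p = 0.0867), and between Groups D and M it was -4.94 (SE 0.85, adjusted p = 0.0602). Over the alternative settings limma's adjusted p ran from 0.00367 to 0.245 and from 0.00589 to 0.233. Without C2 the first difference was 4.78 (adjusted p = 0.015), without M6 it was 4.44 (adjusted p = 0.0129), and with D12 counted in Group D the second was -3.83 (adjusted p = 0.233).

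The other inhibitors went different ways. Timp2, which also helps Mmp14 to activate pro-Mmp2, was level: 5.61 ± 0.11 (SD, n = 4) in Group C, 5.67 ± 0.17 (SD, n = 4) in Group M and 5.66 ± 0.07 (SD, n = 3) in D9 to D11, with a 95% interval of the difference between Groups M and C of -0.17 to 0.30. Timp3, the inhibitor that stays bound to the matrix and blocks Adam17 and Adamts enzymes, read -3.26, -3.10, -3.52 and -4.04 in Group C, -2.97, -3.04, -2.62 and -2.78 in Group M, -3.38, -3.77 and -3.58 in D9 to D11 and -3.08 in D12. All 4 rats of Group M lay above the 4 of Group C, by 0.63 on average (SE 0.20, limma adjusted p = 0.123). Timp4, an inhibitor found mostly in muscle and heart, read -1.30, -1.49, -1.19 and -1.06 in Group C, -1.94, -1.32, -2.71 and -2.25 in Group M, -1.32, -1.23 and -1.15 in D9 to D11 and -2.08 in D12. M5, M7, M8 and D12 were low and M6 was level with Group C, which gave -0.79 (SE 0.25, limma adjusted p = 0.122) between Groups M and C and 0.82 between Groups D and M. Its second probe gave -0.70 in the first of these.

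**Figure D2:**
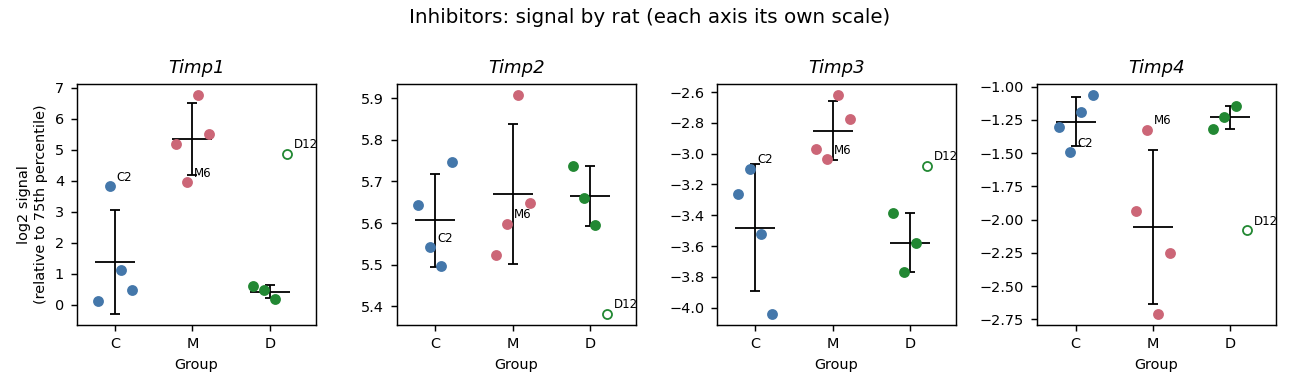
Log2 signal relative to the 75th percentile (y axis, a separate scale for each gene) of the 4 Timp genes in Groups C, M and D (x axis); points are rats, the open point is D12, which is outside the mean, and bars are the mean and SD. Timp1 separates Group M (3.95 to 6.78) from D9 to D11 (0.20 to 0.60), while Timp2 spans 5.38 to 5.91 over all 12 rats.

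Among the Mmp genes, the stromelysins, matrilysin and macrophage elastase had the highest differences between Groups M and C. Mmp7 (matrilysin), Mmp3 and Mmp10 (the stromelysins), Mmp12 (macrophage elastase) and Mmp13 (a collagenase) are neighbours on rat chromosome 8, with their probes between chr8:4168554-4168613 and chr8:4533647-4533706 in rn4. Their RefSeq promoters (GRCr8) are shown because in rat M7 each of these 5 genes lay above every rat of Group C. Each promoter also holds a TGAGTCA motif, the site that AP-1 factors bind, on either strand. The 5 were chosen for both traits, so the motif in them tests nothing. Any link between the motif and the levels was not tested. The 100 bases before each start follow, 5′ to 3′ on the gene's strand, with the motif in capitals. Timp1, which holds no exact match within 250 bases, is given beside them.
Mmp3, chr8:12925181-12925280, plus strand: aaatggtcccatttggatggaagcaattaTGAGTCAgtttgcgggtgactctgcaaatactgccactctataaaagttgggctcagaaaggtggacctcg
Mmp10, chr8:12974607-12974706, plus strand: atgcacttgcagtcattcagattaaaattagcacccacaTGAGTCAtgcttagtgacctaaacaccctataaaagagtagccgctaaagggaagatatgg
Mmp12, chr8:12866552-12866651, plus strand: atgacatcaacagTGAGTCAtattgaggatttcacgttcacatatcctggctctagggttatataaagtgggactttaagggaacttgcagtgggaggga
Mmp13, chr8:12782729-12782828, plus strand: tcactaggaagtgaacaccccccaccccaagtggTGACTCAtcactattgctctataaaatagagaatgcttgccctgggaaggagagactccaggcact
Mmp7, chr8:13132943-13133042, plus strand: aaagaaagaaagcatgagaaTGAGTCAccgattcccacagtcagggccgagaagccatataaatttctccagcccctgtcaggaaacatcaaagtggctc
Timp1, chrX:3771123-3771222, minus strand: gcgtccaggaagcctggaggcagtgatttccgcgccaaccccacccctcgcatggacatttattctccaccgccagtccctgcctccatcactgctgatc
The motif begins 71, 61, 87, 66 and 80 bases before the start in the order listed. Within 250 bases it was found in 6 of the 16 Mmp promoters in the table (these 5 and Mmp1a), in 1 of 27 collagen promoters (Col6a1), 1 of 13 Adam promoters (Adam19), 0 of 11 Adamts and 0 of 4 Timp promoters, and in 4.05% of all 33469 promoters. A TATAAA box on the gene's strand was found in 8 of the 16 Mmp promoters and in 8.06% of all. A match describes the letters and does not show that a factor binds there. Only this exact string was searched, so the lack of a match does not show that no factor binds.

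Mmp7, a small protease of gut epithelium that cuts many substrates besides matrix, read -8.01, -3.87, -6.49 and -7.37 in Group C, -2.72, -5.56, -2.98 and -3.11 in Group M, -8.09, -7.83 and -8.02 in D9 to D11 and -3.72 in D12. It was well above background on 1 of 4 arrays of Group C (C2), all 4 of Group M and none of D9 to D11. C2 lay above M6, so Groups M and C overlapped, and the difference was 2.84 (SE 0.87, limma adjusted p = 0.121, and 0.0231 without M6). Over the alternatives this difference ran from 1.21, with normexp background correction, to 3.73, and limma's adjusted p from 0.00534 to 0.267. Group M was at least 8.1-fold above D9 to D11, taking for each of those arrays the lowest signal among probes well above background (limma adjusted p = 0.081). That bound belongs to the main processing. Over the alternatives the log2 difference between Groups D and M ran from -5.04 to -1.59, and limma's adjusted p from 0.00642 to 0.302.

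Mmp3, which cuts proteoglycans and activates other pro-Mmp enzymes, read -4.58, -4.77, -5.07 and -5.32 in Group C, -3.83, -4.64, 0.83 and -3.34 in Group M, -5.34, -5.16 and -4.61 in D9 to D11 and -4.43 in D12. M7 stood far above the rest, and M5 and M8 also lay above every rat of Group C. The difference of 2.19 (SE 0.96, limma adjusted p = 0.209) was 0.998 without M7. Mmp10 was also highest in M7, with -1.22, -1.85, -1.06 and -1.76 in Group C, -1.20, -0.55, 2.61 and 0.05 in Group M and -1.31, -1.13 and -0.67 in D9 to D11. For Mmp10, M6 and M8 lay above every rat of Group C as well. Its M5 lay within the range of Group C, and the limma adjusted p was 0.173. Mmp13 read -4.25, -4.32, -0.95 and -3.51 in Group M against -4.45, -4.47, -3.67 and -4.35 in Group C. M7 was again far above the rest, with M8 just above Group C, and the difference was 0.98 (SE 0.64, adjusted p = 0.396 by limma). M7 also had the highest neutrophil and fibroblast sums of all 12 rats, 5.88 and 40.9. The fibroblast markers Dcn and Lum read 3.99 and -0.08 in M7, level with the highest rats of Group C (3.99 and -0.07). The fibroblast sum of M7 therefore does not speak for its whole list.

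Mmp12 read -4.46, -3.20, -4.10 and -5.32 in Group C, -1.74, -4.81, -1.39 and -1.47 in Group M, -4.87, -4.83 and -4.44 in D9 to D11 and -1.28 in D12. M5, M7, M8 and D12 were high, C2 was next, and M6 was as low as D9 to D11. The difference was 1.92 between Groups M and C (SE 0.73, limma adjusted p = 0.161) and -2.36 between Groups D and M (SE 0.78, adjusted p = 0.139), which became 2.74 (adjusted p = 0.0095) and -3.18 (adjusted p = 0.0071) without M6. Limma's adjusted p ran over the alternatives from 0.00497 to 0.362 in the first comparison and from 0.0071 to 0.543 in the second. The second difference ran from -3.18 to -1.50.

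Of the remaining Mmp genes, Mmp19 and Mmp28 were higher and Mmp11 lower in Group M. Mmp19, a protease of vessel walls and stroma, differed by 1.01 (SE 0.38) and Mmp28 (epilysin) by 0.94 (SE 0.31) between Groups M and C, both with M6 inside the range of Group C. Mmp11 (stromelysin 3), which is made by stromal cells near epithelium, went the other way, with -4.16, -4.39, -4.29 and -3.99 in Group C, -4.62, -4.78, -6.13 and -5.62 in Group M and -4.31, -4.66 and -4.21 in D9 to D11. All of Group M lay below Group C, with a difference of -1.08 (SE 0.30, limma adjusted p = 0.11). D12 lay nearer to the mean of Group M than of Group C for Mmp11. Mmp2 (gelatinase A) and its membrane activator Mmp14 were level, at 3.10 ± 0.16 (SD, n = 4) and 3.11 ± 0.20 (SD, n = 4) for Mmp2 in Groups C and M, with 95% intervals of the difference of -0.27 to 0.28 and -0.48 to 0.56. Mmp15 and Mmp16, also membrane-type enzymes, differed by -0.23 and -0.48. Mmp9 (gelatinase B), an enzyme that neutrophils store, reached signal well above background in D12 alone, where it read -6.40. Mmp1b, Mmp20, Mmp21 and Mmp27 were well above background on none of the 12 arrays and Mmp1a on 1.

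In the Adamts family, Adamts9, Adamts4 and Adamts1, which cut the proteoglycans aggrecan and versican, were high in Group M. Adamts9 (chr4:126996632-126996691 in rn4) read -2.96, -1.46, -3.04 and -2.99 in Group C, -0.92, -1.05, -0.03 and 0.16 in Group M, -1.76, -1.65 and -2.22 in D9 to D11 and 0.22 in D12. Groups M and C did not overlap, M6 included, with a difference of 2.15 (SE 0.40, 4.44-fold, limma adjusted p = 0.0768, over the alternatives 0.00359 to 0.245). D9 to D11 lay between Group M and 3 rats of Group C, -1.42 from Group M (SE 0.43, adjusted p = 0.12). Adamts4 was not well above background in Group C or D9 to D11 and was so in 2 of 4 rats of Group M, where it read -6.29, -7.56, -4.25 and -5.58, and in D12 it read -4.41. Group M was at least 1.7-fold above Group C (limma adjusted p = 0.0932) and at least 1.61-fold above D9 to D11 (adjusted p = 0.0833). Adamts1 read -0.42, 0.29, -0.63 and -0.80 in Group C, 0.59, 0.05, 2.35 and 1.02 in Group M, 0.03, -0.96 and -0.51 in D9 to D11 and 1.54 in D12, with M7 highest and C2 above M6.

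Adamts3, a procollagen N-proteinase, differed by 0.87 (SE 0.30) between Groups M and C and by -1.10 (SE 0.33) between Groups D and M. Adamts2, the main enzyme of the same reaction, was slightly lower in Group M, with a difference of -0.30 (SE 0.12, limma adjusted p = 0.178). Adamts5 differed by 0.26 and -0.71 in these comparisons. Adamts6 differed by -0.39 and 0.38, and Adamts15 by 0.21 between Groups D and M. Adamts18 went opposite to Adamts9, reading -4.20, -5.14, -4.59 and -3.85 in Group C, -5.79, -4.63, -7.01 and -5.58 in Group M, -4.07, -4.59 and -4.17 in D9 to D11 and -6.48 in D12. M7 and D12 were lowest and M6 lay within Group C, and limma gave -1.31 (SE 0.45, adjusted p = 0.139) for Groups M and C.

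Of the Adam genes, Adam8 and Adam28 differed most. Adam8, a sheddase of myeloid cells, read -3.88, -2.95, -3.57 and -3.67 in Group C, -1.90, -3.70, -1.77 and -2.20 in Group M, -4.02, -3.85 and -3.98 in D9 to D11 and -2.09 in D12. M6 lay within Group C and the other rats of Group M above it, a difference of 1.13 (SE 0.38, limma adjusted p = 0.138) that was 1.56 (adjusted p = 0.0077) without M6. Limma's adjusted p for this difference ran from 0.00463 to 0.316 over the alternatives. Adam28, a protease of lymphocytes and some epithelia, was low where the B cell sum was high among rats of Groups M and D. In Group C it was not as low in C2, whose B cell sum was 5.35. It read -5.01, -5.96, -5.20 and -5.37 in Group C, -8.01, -5.47, -8.87 and -7.82 in Group M, -5.07, -5.85 and -5.07 in D9 to D11 and -9.06 in D12, and was well above background on 1 of 4 arrays of Group M (M6), all 4 of Group C and D9 to D11. The difference was -2.15 (SE 0.60, limma adjusted p = 0.11, and 0.00393 without M6, the difference over the alternatives -2.84 to -0.46, the last with normexp background) between Groups M and C and 2.21 (SE 0.65) between Groups D and M, and with D12 counted the latter was 1.28. Between Groups M and C limma's adjusted p ran from 0.00393 to 0.252 over the alternatives.

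The ubiquitous sheddases differed little. Adam10 had a narrow spread, 0.46 ± 0.04 (SD, n = 4) in Group C, 0.26 ± 0.07 (SD, n = 4) in Group M and 0.55 ± 0.03 (SD, n = 3) in D9 to D11. Its difference of -0.20 (SE 0.08) left no overlap between Groups M and C although it was 1.15-fold, and the limma adjusted p was 0.155. Over the 3 probes of Adam10 this difference ran from -0.20 to -0.03. Adam17, which releases tumour necrosis factor from the cell surface, differed by 0.14 (95% interval -0.15 to 0.42). Adam19 was higher in Group M by 0.66 (SE 0.21), and Adam33 and Adam15 were lower, with differences of -0.51 and -0.48. Between Groups D and M the differences were -0.90, 0.77 and 0.55 for these 3. Adam23, a member of the family without protease activity, differed by -0.33 between Groups D and M, and Adam11 by 0.29 between Groups M and C. Of the 29 Adam probes, 11 reached no array with signal well above background, for genes such as Adam2, Adam3a, Adam18 and Adam30 that are known from testis.

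**Figure D3:**
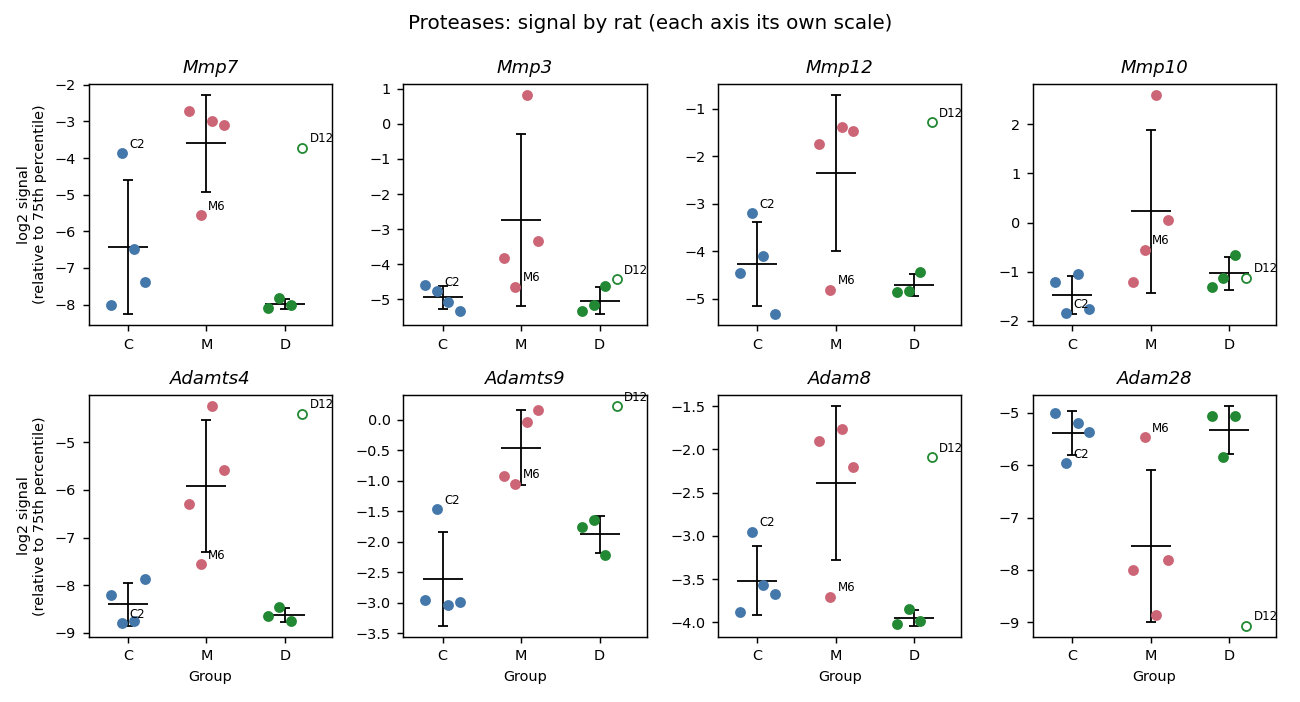
Log2 signal relative to the 75th percentile (y axis, a separate scale for each gene) of 8 protease genes in Groups C, M and D (x axis); points are rats, the open point is D12, outside the mean, and bars are the mean and SD. D12 lies with the high rats of Group M for Mmp7, Mmp12, Adamts4, Adamts9 and Adam8 and with the low ones for Adam28. M7 lies far above all other rats for Mmp3.

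The collagens that make up most of the fibres did not differ beyond the spread between rats. Col1a1 read 3.85, 4.07, 3.21 and 4.59 in Group C, 4.31, 3.68, 3.99 and 4.59 in Group M and 4.07, 3.95 and 3.74 in D9 to D11, with a 95% interval of the difference between Groups M and C of -0.41 to 0.84. For Col1a2 and Col3a1 the differences were 0.11 (interval -0.29 to 0.51) and 0.37 (interval -0.13 to 0.86). These intervals leave out a 2-fold difference in either direction. The minor fibrillar chains of type V were 0.22 (Col5a1), 0.38 (Col5a2) and 0.78 (Col5a3) from Group C. Col5a3 read -0.64, -0.34, -0.86 and -0.46 in Group C, 0.45, -0.59, 0.41 and 0.52 in Group M and -0.33, -0.69 and -0.69 in D9 to D11, with M6 level with Group C and the other 3 rats of Group M above it (limma adjusted p = 0.122, and 0.00859 without M6). Its limma adjusted p between Groups M and C ran from 0.00414 to 0.276 over the alternatives.

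The 3 chains of type VI were higher in Group M, by 0.32 (Col6a1, SE 0.15), 0.54 (Col6a2, SE 0.18) and 0.56 (Col6a3, SE 0.24), and lower in D9 to D11 than in Group M, with differences of -0.39, -0.35 and -0.56. No adjusted p of the first 3 was below 0.133. Of the type IV chains, Col4a1 differed by 0.20 and Col4a2 by -0.21, and Col4a4 was lower in Group M, with a difference of -0.77 (SE 0.29). Col4a3 was well above background in no rat of Group M and in 2 of 4 of Group C, which was at least 1.21-fold above.

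Col8a1, a short-chain collagen of vessel walls, had the highest difference among collagens well above background. It read -1.97, -1.01, -2.18 and -1.71 in Group C, -0.48, -1.31, -0.54 and -0.52 in Group M, -1.62, -1.84 and -1.84 in D9 to D11 and -1.41 in D12. C2 lay above M6, and D12 here lay below every rat of Group M. The difference was 1.004 between Groups M and C (SE 0.26, limma adjusted p = 0.105) and -1.05 between Groups D and M (SE 0.28, adjusted p = 0.101). Col12a1, which decorates type I fibres, differed by 0.58 (SE 0.17) and -0.70 (SE 0.19) in these comparisons, and all 3 of its probes had these signs. The probe of Col12a1 that met the methods' criterion differed by -1.08 between Groups D and M. Its relative Col14a1 was level (0.03, interval -0.42 to 0.49). Col18a1, the basement membrane collagen that yields endostatin, was 0.41 higher in Group M (SE 0.12), and Col15a1 differed by 0.14. Col7a1, the anchoring fibril of the epithelial base, differed by 0.35 (SE 0.20) and -0.03 in these comparisons, and the epithelial collagen Col17a1 by 0.18 and -0.74.

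Col11a2, a fibrillar chain best known from cartilage, read -0.98, -1.51, -1.57 and -1.16 in Group C, -2.05, -1.39, -2.13 and -2.03 in Group M, -0.76, -0.61 and -1.02 in D9 to D11 and -1.28 in D12. D9 to D11 were above every rat of Group M, D9 and D10 were above every rat of Group C, and D12 lay within Group C. The difference between Groups D and M was 1.103 (SE 0.21, limma adjusted p = 0.071) and its second probe had the same sign. Col24a1, another fibrillar chain, differed by -0.68 (SE 0.37) between Groups M and C, with M6 within Group C. Col22a1, a collagen of tissue junctions, differed by 0.58 (SE 0.37) between Groups D and M. Probes of 1 gene disagreed in sign between Groups M and C for Adam34, Adamts15, Col10a1, Col14a1, Col9a1 and Mmp2.

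**Figure D4:**
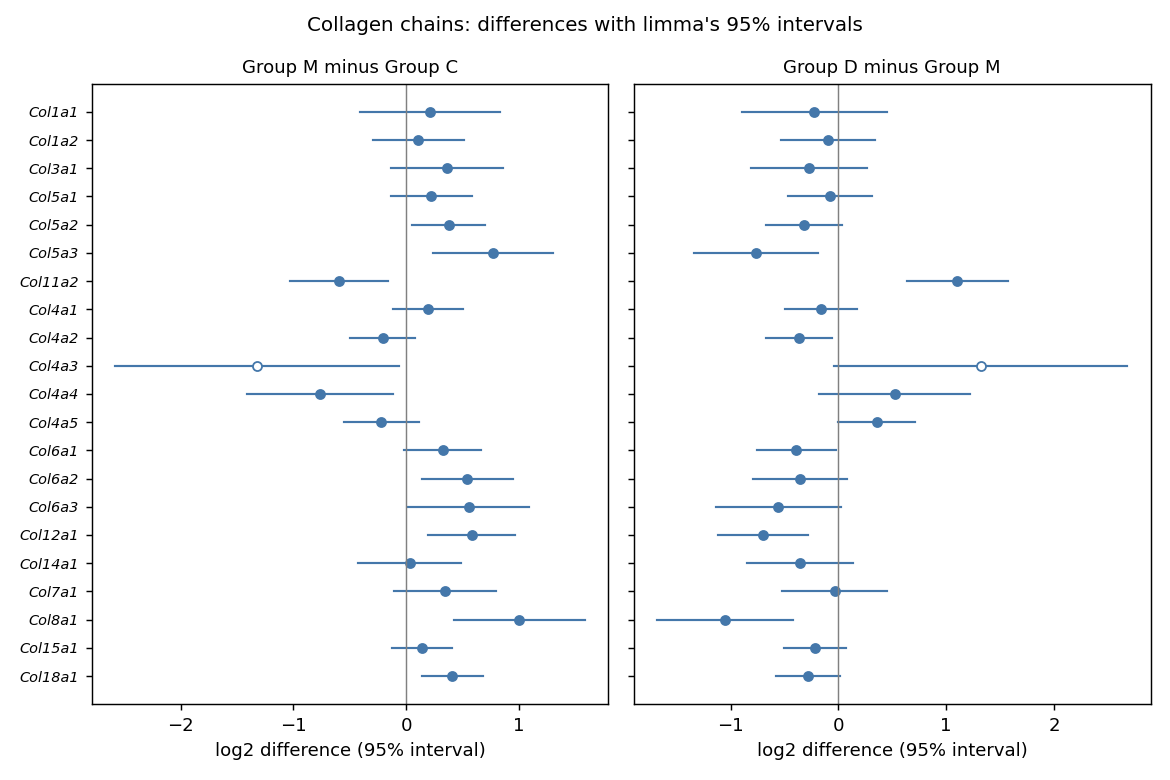
Log2 difference between groups (x axis) with limma's 95% interval for 21 collagen chains (y axis), fibrillar chains first; the open point is Col4a3, which was not well above background on all 12 arrays. In Group M minus Group C the interval leaves out 0 on the upper side for 7 chains and on the lower side for 3, and those of Col1a1, Col1a2 and Col3a1 hold 0.

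Genes of collagen assembly and matrix turnover outside these families were read from a list of 46, all on the array. None passed limma's adjusted threshold. At an unadjusted p of at most 0.05, 11 were higher and 2 lower in Group M than in Group C, and 2 were higher and 11 lower in Group D than in Group M, where 10% and 12.6%, then 11.3% and 10.3% of all probes did so. The methods' criterion was met by 3 of the 46 in Group M against Group C, all higher, where 1.37% of all probes were called higher and 0.935% lower: Plat (tissue plasminogen activator), Tfpi2 (a matrix-bound serine protease inhibitor) and the cross-linking enzyme Loxl4. In Group D against Group M it was met by 2, Tfpi2 and Loxl4, both lower. There 1.57% of all probes were called lower and 1.09% higher. At the unadjusted p, the 2 lower in Group M than in Group C were Fmod, a small leucine-rich partner of collagen, and Loxl3. Fmod and Reck were the 2 higher in Group D than in Group M. Fmod differed by -0.75 (SE 0.16, limma adjusted p = 0.0909) and 0.75 (SE 0.18, limma adjusted p = 0.0857) in these comparisons. Neither pair of groups overlapped for Fmod, and D12 read 0.77. Plat read 0.55, 1.06, 0.55 and 0.65 in Group C, 1.85, 1.06, 2.74 and 1.90 in Group M, 1.02, 0.74 and 0.98 in D9 to D11 and 1.83 in D12, with C2 and M6 level with each other (1.19, SE 0.29, limma adjusted p = 0.0992). Serpinh1, the chaperone of procollagen, read 1.34, 1.79, 1.44 and 1.51 in Group C and 2.40, 2.19, 2.44 and 2.54 in Group M, with no overlap, and D9 to D11 read 1.87, 1.46 and 1.36 (0.87, SE 0.14, adjusted p = 0.0511 by limma). The prolyl and lysyl hydroxylases differed less, from -0.05 for Plod1 to 0.37 for P4ha2 (SE 0.13, unadjusted p = 0.0201 by limma). Between these lay P4ha1 at 0.27, Plod2 at 0.25 and P4hb at -0.01. The receptor Itgb1 was 0.72 higher in Group M (SE 0.19).

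Group D against Group C gave few differences. At an unadjusted limma p of at most 0.05, 6 of 123 members (4.88%) differed, against 5.97% of all probes, for Adam11, Adamts19, Col11a2, Col4a2, Col9a2 and Mmp25. The methods' criterion was met by 1 member (0.813%), Mmp25, against 0.369% of all probes. Mmp25 (leukolysin), a membrane-anchored protease known from neutrophils, read -6.44, -6.37, -6.36 and -5.23 in Group C, -4.79, -6.31, -6.53 and -5.28 in Group M, -4.61, -4.81 and -4.66 in D9 to D11 and -4.86 in D12. Here D12 was level with the other rats of Group D, and all of Group D lay above all of Group C, by 1.41 (SE 0.43, limma adjusted p = 0.674). Col9a2, a chain of type IX collagen, read -4.45, -4.59 and -4.48 in D9 to D11 and -4.46 in D12, above all of Group C (-5.16, -4.99, -5.08 and -4.71) and all of Group M, with a difference from Group C of 0.48 (SE 0.14, limma adjusted p = 0.656). Col4a2 in D9 to D11 was below all of Group C (-0.57, SE 0.14). Timp1 differed by -0.97 (95% interval -2.87 to 0.93) between these groups, and D9 to D11 lay within the range of the 3 rats C1, C3 and C4.

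Single rats cut across the groups. Of the 12 genes at least 2-fold higher in Group M than in Group C, D12 lay nearer to the mean of Group M than of Group C for 8, C2 for 6, M6 for 4, D10 for 1, and C1, C3, C4, D9 and D11 for none. For the 5 genes at least 2-fold lower, the counts were 5 for D12, 3 for C2, 1 for M6 and 1 for D9. These groups were chosen from the same values, so the counts of Group C and Group M rats describe the pattern and test nothing. The probes of Col10a1, Col23a1 and Col4a3, which are among these genes, were not well above background in every rat. The rats D12, C2, M5, M7 and M8 were also those with B cell sums of 4.53 or more, and M6 was not.

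**Figure D5:**
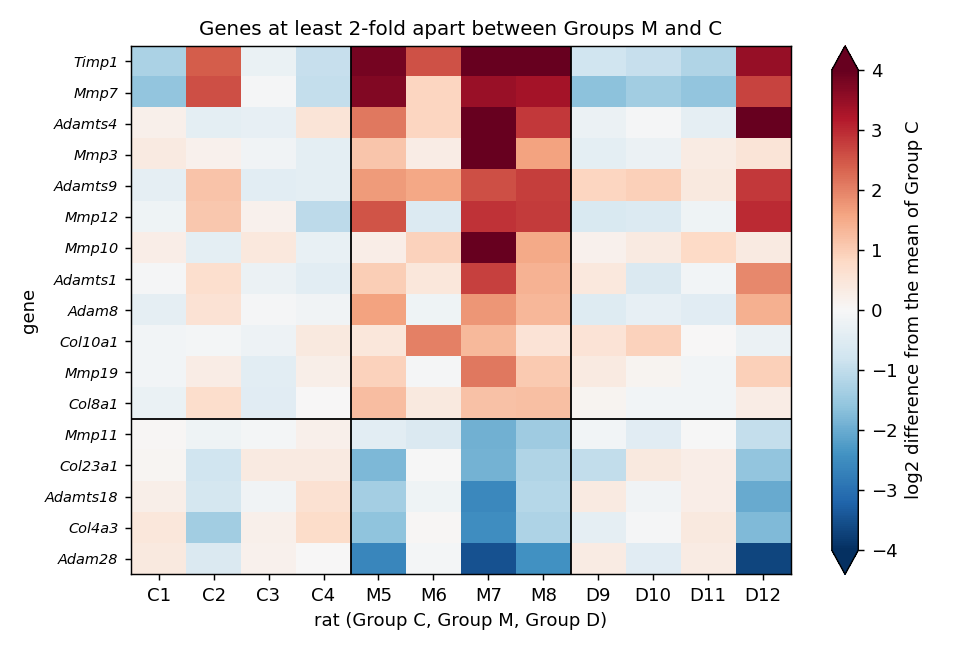
Log2 difference of each rat (x axis) from the mean of Group C, as colour, for the 17 genes (y axis) at least 2-fold apart between Groups M and C; the scale is capped at 4 in either direction and values run from -3.68 to 5.77. The D12 column has the colours of M5, M7 and M8 for most genes, and M6 is paler than the other rats of Group M for most genes.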

How the data were processed

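Colonic RNA of 12 rats was hybridised to 1-colour (Cy3) Agilent arrays, 1 per rat. Per the file headers, the deposited intensity values were background-subtracted and detrended by the scanner software on a linear scale, with no normalization between arrays, and probe positions are those of rn4. The authors' matrix holds log2 values, quantile normalized, and was used as an alternative. The deposited marks for spots well above background and outlier spots (other columns) served as filters.

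Here, log2 intensity minus the log2 of each array's 75th percentile was used, without control and outlier spots, averaged over the spots of a probe. For 1 probe per gene, the brightest was taken. A probe counted as well above background on an array if over 0.5 of its spots were so marked. Groups were compared with limma 3.58.1 in R 4.3.3 in 1 model of 11 arrays (without D12), with Benjamini-Hochberg adjustment over 30367 probes, and by the methods' criterion (analysis of variance, Tukey, 2-fold). SE, intervals and adjusted p are limma's. The code was tested on simulated data. Alternatives were another background correction (limma's normexp, offset 50), other normalizations, filters, weights, models, and each rat left out. The array number limits precision.

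Genes named were every Timp, a fixed list of main collagens and proteases, the 3 highest and lowest differences per family (Timp aside) in Groups M against C and D against M among genes whose signal was well above background throughout 1 or more groups, and all genes called. The members and lists were chosen with earlier results of these data known. Promoters were from RefSeq (GRCr8); 72 of the member genes had an entry. All 101 gene names matched RefSeq, 2 of them by synonym. Figures were drawn with matplotlib 3.10.9. A fold against a group below background was computed against the lowest signal well above background on each array. 1 gene of these families and 1 of the related genes are not reported here.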

Additional observations from a re-analysis of the deposited data

Results flagged for a closer look

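In 12 of 88 groups of 4 rats, the highest or lowest rat stood apart from the other 3 by Dixon's criterion, set at a nominal 1 in 20. The genes were chosen mostly for large differences in these same rats, and they share the rats. The groups are therefore not independent, and the count cannot be set against that rate. D12 stood apart from D9 to D11 for Timp1 (4.87, the others 0.20 to 0.60), Mmp12 (-1.28, the others -4.87 to -4.44), Adam8 (-2.09, the others -4.02 to -3.85) and Adamts15 (1.65, the others 0.96 to 1.02). M6 stood apart from M5, M7 and M8 for Mmp7 (-5.56, the others -3.11 to -2.72), Mmp12 (-4.81, the others -1.74 to -1.39), Col8a1 (-1.31, the others -0.54 to -0.48), Col5a3 (-0.59, the others 0.41 to 0.52) and Col11a2 (-1.39, the others -2.13 to -2.03). In Group C, C2 stood apart for Adamts9 (-1.46, the others -3.04 to -2.96), C4 for Mmp25 (-5.23, the others -6.44 to -6.36) and C3 for Mmp16 (-4.34, the others at -3.79). All values are log2 signals relative to the 75th percentile of the array.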

How the results depend on the processing

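No member passed limma's adjusted threshold on the 11 arrays. For signs, 35 genes were followed: every Timp, the 3 highest and lowest differences per family and the genes called, without the rest of the fixed list. Most were chosen for large differences in these same rats, so a count of kept signs tests nothing. Of their 70 differences in Groups M against C or D against M, 62 kept their sign under every alternative run. The 8 that did not were Adam23, Adamts15, Col17a1, Col22a1, Col9a2 and Timp2 in the first comparison, and Col24a1 and Timp2 in the second. With normexp background 2 members passed in each of these comparisons, with only probes well above background 1 and 4, with array weights 49 (39.8%, all probes 28.3%) and 42 (34.1%, all probes 22.7%), and without adjustment 48 and 40, with 6 in Group D against Group C. Leaving out 1 rat gave 0 to 30 (30 without M6, 2 without C2), 0 to 27 (27 without M6, 2 without C2) and 0. By the methods' criterion, 7, 10 and 1 members became 4 and 1 (Timp1) in the first 2 comparisons with all 12 arrays (all probes 1.56% and 0.948%), and 3, 6 and 0 with normexp (all probes 1.04%, 1.02% and 0.0955%). Without 1 rat the counts ran from 3 to 18 (18 without M6, 10 without C2, 4 without C4, 3 without C1, C3 or M7), from 4 to 20 (20 without M6, 4 without D10, 5 without M7 or M8, 6 without D9 or D11) and from 0 to 1. The share of all probes moved with them, at 5.84% without M6, 3.3% without C2, 1.51% without C4 and 1.16% to 1.45% without C1, C3 or M7 in the first comparison, and 6.67% without M6 and 1.42% to 1.85% without the others named in the second.

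The Mmp median, 0.26 in Group M against Group C, was 0.056 with normexp, 0.49 with probes well above background and 0.037 with every probe, and 0.13 to 0.35 without 1 rat (0.13 without M5, 0.15 without C3). In Group D against Group M, -0.22 became 0.016, -0.59 and -0.052 in the same order and -0.12 with array weights. The Adam median was -0.21 and 0.28 with probes well above background, 0.13 with a median shift in the latter comparison, and -0.064 to 0.045 and 0.02 to 0.10 without 1 rat. The collagen median was 0.30 with array weights in Group M against Group C, and 0.06 to 0.21, -0.24 to -0.08 and -0.07 to 0.14 without 1 rat in the 3 comparisons. For Adamts these ranges were -0.05 to 0.15, -0.11 to 0.12 and -0.10 to 0.14, and for Timp 0.27 to 0.40, -0.43 to -0.29 and -0.09 to 0.01. With every probe the Timp medians were 0.063 and -0.0053. For Mmp the ranges in the other 2 comparisons were -0.29 to -0.15 and -0.06 to 0.02, and for Adam in Group D against Group C -0.03 to 0.06. The causes were not tested.

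With the replicate number as a block, 0 members passed in each comparison. Same-numbered rats did not deviate together (pair correlations of -0.56 to -0.04 for Groups M and C, -0.08 to -0.02 for D and M and -0.12 to 0.13 for D and C), so the numbers do not pair the rats. Signal over background limits the 42 probes not well above background on all 12 arrays.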
